A study of Homo sapiens with 9 samples.

Results

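7SL RNA is the RNA core of the signal recognition particle, and its genes and gene copies were followed here in HCT116 cells that overexpressed the long non-coding RNA CRLM1. The copies were chosen by 2 criteria, a gene symbol that starts with RN7SL or equals Metazoa_SRP, and at least 20 counts summed over the 9 samples of the deposited count table. Of 31558 listed genes, 333 carried such a symbol (201 of them RN7SL and 132 Metazoa_SRP), and 22 reached the limit, which left 311 copies below it. The last copies inside the limit were RN7SL566P with 22 counts, RN7SL23P with 21 and Metazoa_SRP ENSG00000281884 with 20. The first copies outside it were Metazoa_SRP ENSG00000281768 and Metazoa_SRP ENSG00000281918 with 19 counts each and RN7SL339P with 18.

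HCT116 is an established human colorectal carcinoma line. CRLM1-OE cells carried the CRLM1 sequence in the pTSB vector, Anti cells carried the antisense sequence of CRLM1, and Ctrl cells carried the empty plasmid, with 3 samples in each group. The methods of the study describe a lentiviral form of this vector with GFP and selection with puromycin, but do not say that the sequenced cells of every group were made that way. All samples came from 1 cell line, so that p-values refer to these samples only. For the 7SL entries with most counts, edgeR's fit gave a smaller standard error than their own replicates did. Its p-values for these entries therefore do not measure the spread between their replicates. The RNA was labelled as poly(A) RNA. The samples held 33302292 to 44514692 counts, and 3 counts in a sample corresponded to 0.0674 to 0.0901 per 1000000 counts before TMM scaling. CPM below is the counts of a gene per 1000000 counts of the sample after TMM scaling. CRLM1, listed as RP4-710M16.2, had 32751 to 38704 counts in the CRLM1-OE samples, 0 in each Ctrl sample and 1540 to 1951 in the Anti samples. Since it was not known whether the counting used strand, reads of CRLM1 and of its antisense sequence could not be told apart. Of 8 markers of intestinal epithelium, EPCAM, KRT8, KRT18, KRT19, CDH1 and CDX2 were expressed, with EPCAM at 158 to 215 CPM, whereas CDH17 and VIL1 stayed at or below 0.293 and 0.247 CPM. Markers of leukocytes, endothelium and hepatocytes (PTPRC, PECAM1 and ALB) stayed at or below 0.137 CPM, and of the fibroblast markers COL3A1 was near 0 and COL1A1 was at 9.14 to 18.1 CPM.

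The signal recognition particle binds the signal peptide of a nascent secretory or membrane protein, pauses its translation and brings the ribosome to the endoplasmic reticulum. There it meets its receptor and hands the ribosome to the translocon. 7SL RNA is transcribed by RNA polymerase III and ends in a short run of uridines without a poly(A) tail, so that a poly(A)-selected library is expected to keep little of it. Mammalian genomes hold a few transcribed 7SL genes and many truncated or mutated copies, and the Alu repeats descend from 7SL. In bulk samples, a lower level in each cell and fewer cells with the RNA cannot be told apart.

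The 3 transcribed 7SL genes of chromosome 14 are described first, because how far they differ decides which reads could be given to one of them. They were compared in GRCh38 at the positions of GENCODE version 44, matched by Ensembl identifier. RN7SL1 (ENSG00000276168, chr14:49586580-49586878, plus strand, 299 bases) lies in an annotated intron of the ribosomal protein gene RPS29, on the opposite strand. RN7SL2 (ENSG00000274012, chr14:49862550-49862849, minus strand, 300 bases) overlaps an exon of the lncRNA gene ENSG00000282885 on the same strand. RN7SL3 (ENSG00000278771, chr14:49853616-49853914, minus strand, 299 bases) lies between annotated genes.

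RN7SL2 differed from RN7SL1 at 4 positions and had 1 added base at its end, and RN7SL3 differed from RN7SL1 at 7 positions. RN7SL1 and RN7SL2 were thus 98.7% identical over 299 positions, with an identical run of 205 bases, RN7SL1 and RN7SL3 were 97.7% identical with a run of 123 bases, and RN7SL2 and RN7SL3 differed at 11 positions (96.3% identity). Of the stretches of 151 bases, the read length, 34.2% of those in RN7SL1 and 35.3% of those in RN7SL2 occurred once in the genome by exact match, against 100% in RN7SL3. At 50 bases the shares were 15.6%, 13.1% and 62.0%. The authors kept uniquely mapped reads with up to 4 mismatches allowed. A single read covers part of a gene and meets only some of these differences, also those of RN7SL3. The division of reads between these genes is therefore uncertain, and the level of each is given with that limit.

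**Figure D1:**
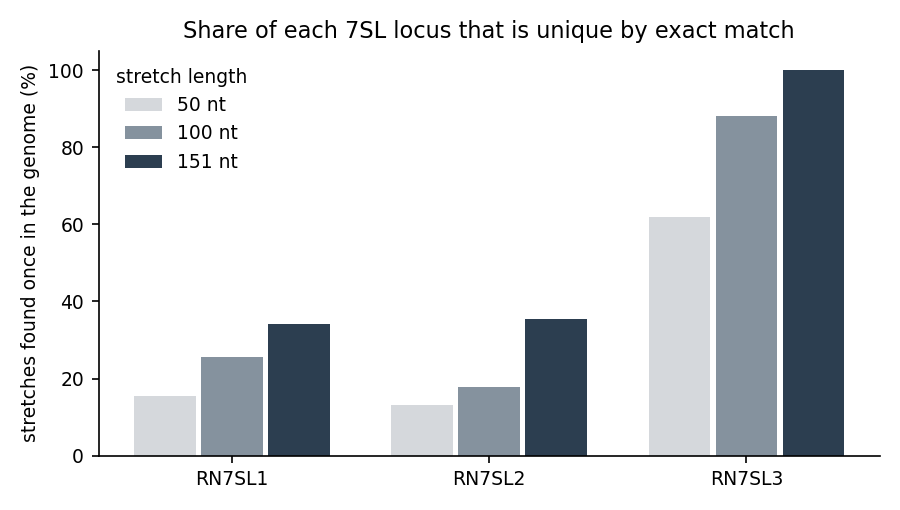
Bars show, for RN7SL1, RN7SL2 and RN7SL3, the percentage of all stretches of 50, 100 or 151 nt within the gene that occurred once in GRCh38 by exact match. Every 151-nt stretch of RN7SL3 was unique, against 34.2% for RN7SL1 and 35.3% for RN7SL2.

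The 100 bases before each start are shown, because the genes share their transcribed sequence but not what precedes it. Capitals mark an 8-base match to TGACGTNA, the letters of a cyclic AMP response element, which is a known part of 7SL promoters. This motif was chosen after the sequences had been read, and both strands were searched.
RN7SL1 upstream: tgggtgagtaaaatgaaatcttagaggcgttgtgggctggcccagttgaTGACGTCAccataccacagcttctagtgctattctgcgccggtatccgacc
RN7SL2 upstream: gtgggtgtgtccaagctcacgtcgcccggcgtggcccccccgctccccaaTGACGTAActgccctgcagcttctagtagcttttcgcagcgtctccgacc
RN7SL3 upstream: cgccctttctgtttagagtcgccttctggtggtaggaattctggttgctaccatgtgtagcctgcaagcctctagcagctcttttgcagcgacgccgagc

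These windows are chr14:49586480-49586579, chr14:49862850-49862949 and chr14:49853915-49854014. A match began 51 bases before RN7SL1 (TGACGTCA) and 50 bases before RN7SL2 (TGACGTAA), and the window before RN7SL3 held none. For comparison, 3.01% of 35116 promoter windows of 300 bases from RefSeq held TGACGTNA and 1.85% held TGACGTCA.

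The count table gave these genes 4 entries with many counts, all on chromosome 14. RN7SL1 had 52494 counts over the 9 samples. The gene that version 44 calls RN7SL2 was listed under the symbol Metazoa_SRP and had 51143 counts, and it is called the RN7SL2 locus below. The RN7SL3 locus, also listed as Metazoa_SRP, had 4860 counts. The symbol RN7SL2 itself belonged to another identifier, ENSG00000280102, with the gene type miRNA, 19684 counts and a length of 80 bases as implied by its counts and FPKM (fragments per kilobase per 1000000 fragments). It had no position in version 44 and is called the miRNA-type entry. These 4 entries held 99.5% of the counts of the 22 copies, and the highest 3 held 95.7%. The other 18 copies had 20 to 135 counts each (median 28), none of them on chromosome 14.

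RN7SL1 was lower in every CRLM1-OE sample than in every other sample. It had 78.8, 50.1 and 79.4 CPM in CRLM1-OE, 162, 220 and 255 CPM in Ctrl, and 192, 200 and 169 CPM in Anti. The lowest sample outside CRLM1-OE, Ctrl replicate 1, was still above the highest CRLM1-OE sample, and the Anti samples lay within the range of Ctrl. RN7SL1 was 3.03-fold lower in CRLM1-OE than in Ctrl (log2 fold change -1.60) and 2.67-fold lower than in Anti (-1.42), in comparisons that share the CRLM1-OE samples. The standard error (SE) of these log2 values was 0.030 and 0.028 in edgeR's quasi-likelihood fit, but 0.29 and 0.23 when it was computed from the replicates of RN7SL1 alone. The adjusted p by edgeR's quasi-likelihood test was at or below 1e-300 in both comparisons, and its highest values over the alternative analyses were 0.00406 and 0.0015, both with limma on log2(FPKM + 1).

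The RN7SL2 locus followed RN7SL1 closely. Its level was 69.4, 50.9 and 78.3 CPM in CRLM1-OE, 156, 211 and 250 CPM in Ctrl, and 190, 197 and 170 CPM in Anti. The CRLM1-OE samples were again all below the others. The log2 fold change was -1.62 against Ctrl (SE 0.27 from the replicates) and -1.48 against Anti (SE 0.20), and the highest adjusted p over the alternatives was 0.00292 and 0.000597, again with limma. Per length, RN7SL1 had 600 ± 131 FPKM and the RN7SL2 locus 579 ± 132 FPKM in Ctrl (SD, n = 3).

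The miRNA-type entry had 26.7, 19.3 and 29.2 CPM in CRLM1-OE, 57.9, 81.9 and 96.2 CPM in Ctrl, and 74.3, 77.2 and 65.7 CPM in Anti. It was 3.10-fold lower than in Ctrl and 2.87-fold lower than in Anti. In every sample it held 37.2% to 39.2% as many counts as the RN7SL2 locus.

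The RN7SL3 locus moved the same way by less. It had 10.3, 8.33 and 11.6 CPM in CRLM1-OE, 14.9, 17.4 and 19.8 CPM in Ctrl, and 15.4, 16.9 and 14.5 CPM in Anti, and the CRLM1-OE samples did not overlap the others. The log2 fold change was -0.77 against Ctrl (SE 0.072 in the fit and 0.18 from the replicates) with an adjusted p of 2.21e-25 by edgeR's quasi-likelihood test, and -0.63 against Anti (0.073 and 0.15) with an adjusted p of 9.31e-17. The highest adjusted p over the alternatives was 0.0147 and 0.00997. The fall of 1.71-fold and 1.54-fold was under the 2-fold limit in both comparisons. In Ctrl its level per length was 49.1 ± 6.77 FPKM, far below that of RN7SL1.

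**Figure D2:**
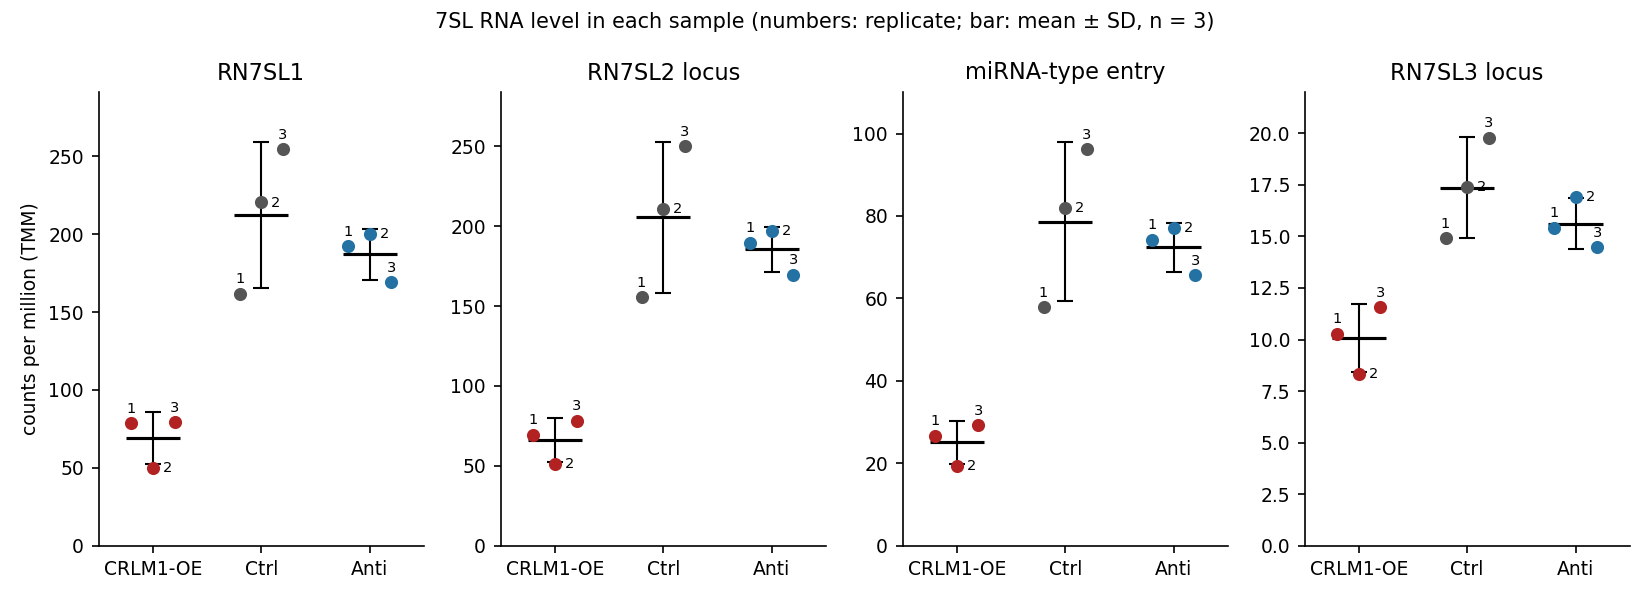
CPM of the 4 7SL entries with most counts in each of the 9 samples, with the replicate number beside each point and the mean ± SD of the 3 samples per group. All CRLM1-OE points lie below all Ctrl and Anti points in each panel, and the distance is smallest for the RN7SL3 locus.

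The ratios between entries separate a change that they share from one that they do not. The counts of the RN7SL2 locus were 88.1% to 102% of those of RN7SL1 over the 9 samples. The ratio of the RN7SL3 locus to RN7SL1 was 13.1%, 16.6% and 14.6% in CRLM1-OE, 9.21%, 7.90% and 7.77% in Ctrl, and 8.03%, 8.46% and 8.57% in the Anti samples. It averaged 14.8% ± 1.79 in CRLM1-OE, 8.29% ± 0.798 in Ctrl and 8.36% ± 0.283 in the Anti samples (SD, n = 3), so that the CRLM1-OE samples stood apart from both other groups. On the log2 scale the mean ratio was 0.83 higher than in Ctrl and 0.81 higher than in Anti. The exact two-sided permutation test gave p = 0.1 for each, the smallest value that 3 against 3 samples allow, and 0.2 after adjustment over 12 such comparisons. The ratio of the RN7SL3 locus to the RN7SL2 locus showed the same pattern, 15.3% ± 0.891 in CRLM1-OE, 8.58% ± 0.877 in Ctrl and 8.42% ± 0.252 in the Anti samples. These ratios carry the same limit on the division of reads between the genes.

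**Figure D3:**
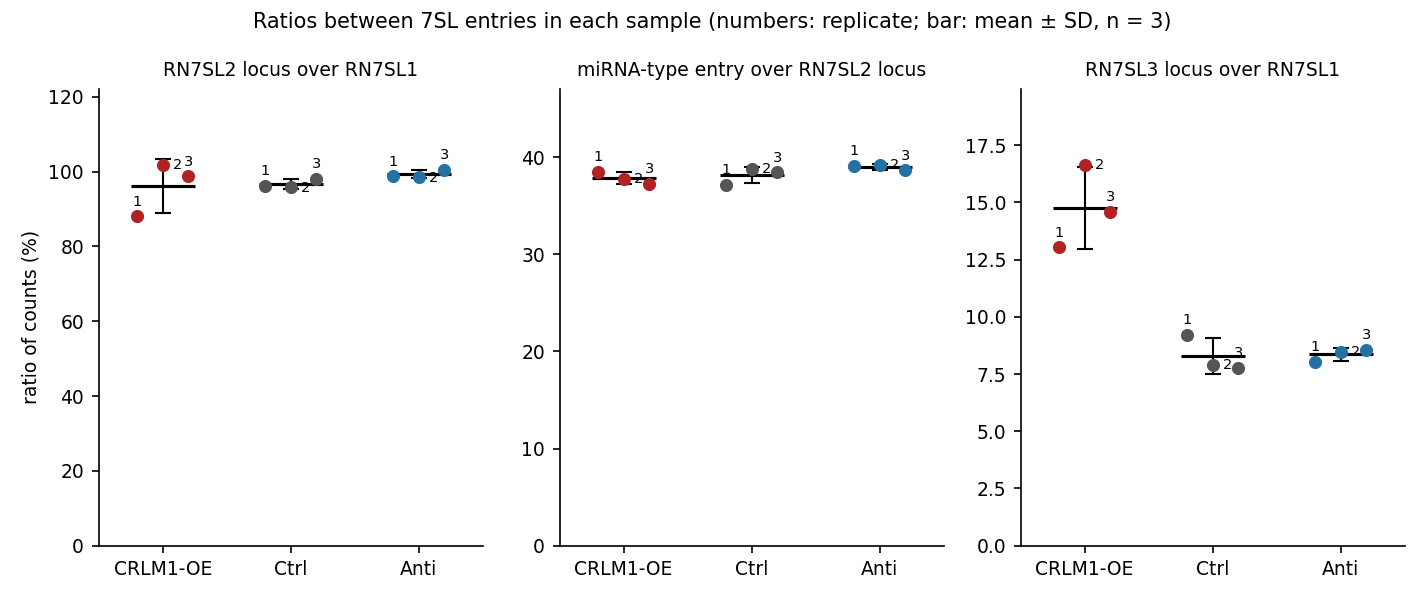
Ratios of counts between 7SL entries in percent, by sample, with replicate numbers and the mean ± SD of 3 samples per group. The first 2 ratios stayed at 88.1% to 102% and at 37.2% to 39.2% in all samples, whereas the ratio of the RN7SL3 locus to RN7SL1 was 13.1% to 16.6% in CRLM1-OE and 7.77% to 9.21% elsewhere.

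Anti and Ctrl, the control groups, differed little. The log2 fold change of Anti against Ctrl was -0.20 for RN7SL1, -0.17 for the RN7SL2 locus, -0.13 for the miRNA-type entry and -0.17 for the RN7SL3 locus, and the samples of the groups overlapped for all 4. The first 3 had an adjusted p below the threshold in edgeR's quasi-likelihood test, with 9.96e-14 for RN7SL1, but the same value was 0.0307 after edgeR's own filter on low counts, 0.465 with DESeq2 and 0.754 with limma on log2(FPKM + 1). The SE from the replicates was 0.21 for RN7SL1 and for the RN7SL2 locus, which is as large as or larger than the change.

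The replicates of RN7SL1, the RN7SL2 locus and the miRNA-type entry differed more than those of most other genes with a like number of counts. The coefficient of variation of RN7SL1 was 24.1% in CRLM1-OE, 22.1% in Ctrl and 8.64% in the Anti samples. The median over 5142 genes with a mean of 1000 to 10000 counts was 2.47%, 2.89% and 2.45%. RN7SL1 was at percentile 99.98, 99.98 and 99.5 of these genes, and its sample-to-sample spread is the reason for giving the SE from its own replicates. RPS29, whose annotated span holds RN7SL1 on the opposite strand, had 293, 283 and 384 CPM in CRLM1-OE, 293, 384 and 398 CPM in Ctrl, and 346, 338 and 317 CPM in Anti. Its groups overlapped, and its log2 fold change was -0.16 against Ctrl and -0.06 against Anti. The adjusted p of RPS29 by edgeR's quasi-likelihood test was 3.1e-11 and 0.0166.

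Summed over the 22 copies, 7SL RNA took 187, 130 and 200 CPM in CRLM1-OE, 392, 533 and 622 CPM in Ctrl, and 473, 493 and 421 CPM in Anti. The group means were 173 ± 37.5, 516 ± 116 and 462 ± 37.5 CPM (SD, n = 3). This corresponded to 0.0137% to 0.0210% of all counts in CRLM1-OE, 0.0373% to 0.0594% in Ctrl and 0.0421% to 0.0493% in Anti. The log2 ratio of the means was -1.58 for CRLM1-OE against Ctrl, -1.42 for CRLM1-OE against Anti and -0.16 for Anti against Ctrl. The sum was given no test, since the copies were chosen by their counts and 4 entries make up nearly all of it. The 18 copies with fewer counts summed to 1.92 ± 0.436, 1.79 ± 0.241 and 1.95 ± 0.134 CPM in CRLM1-OE, Ctrl and Anti, and the 311 copies below the limit to 3.79 ± 0.420, 3.68 ± 0.670 and 3.80 ± 0.503 CPM, so that in neither group of copies did the means differ by more than the spread between replicates.

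Of the 22 copies, 4 were called lower in CRLM1-OE than in Ctrl (fold change of at least 2 and adjusted p of at most 0.05 by edgeR's quasi-likelihood test), where 0.915% of all 29846 genes tested were called lower, and 0 were called higher (2.5% of all genes). These were RN7SL1, the RN7SL2 locus, the miRNA-type entry and RN7SL4P. RN7SL4P reached the limit of 20 counts only through Ctrl, the group in which it was high. Against Anti, 3 copies were called lower, the same without RN7SL4P, beside 2.56% of all genes, and 0 were called higher (3.09%). Between Anti and Ctrl, 0 copies were called lower (0.38% of all genes) or higher (0.683%), although 3 passed the adjusted p alone (12.2% of all genes lower). RN7SL1 and the RN7SL2 locus share sequence, so that reads can move between them, and the miRNA-type entry has no position here that would show whether it overlaps them. The 3 calls may therefore not be 3 separate genes. With the adjusted p alone, 5 copies were lower in CRLM1-OE than in Ctrl (16.8% of all genes) and 5 were lower than in Anti (18.5%), whereas 0 were higher in these comparisons (15.0% and 17.1%) or in Anti against Ctrl (11.5%). Groups did not overlap, with CRLM1-OE lower, for 4 copies against Ctrl (19.3% of all genes) and 5 against Anti (21.0%). With CRLM1-OE higher, they did not overlap for 1 copy against Ctrl (18.3%) and 0 against Anti (20.1%), and between Anti and Ctrl 0 copies were without overlap and lower in Anti (14.0%) and 1 higher (16.9%). The copy higher in CRLM1-OE was Metazoa_SRP ENSG00000281884, which reached the limit of 20 counts only through that group.

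**Figure D4:**
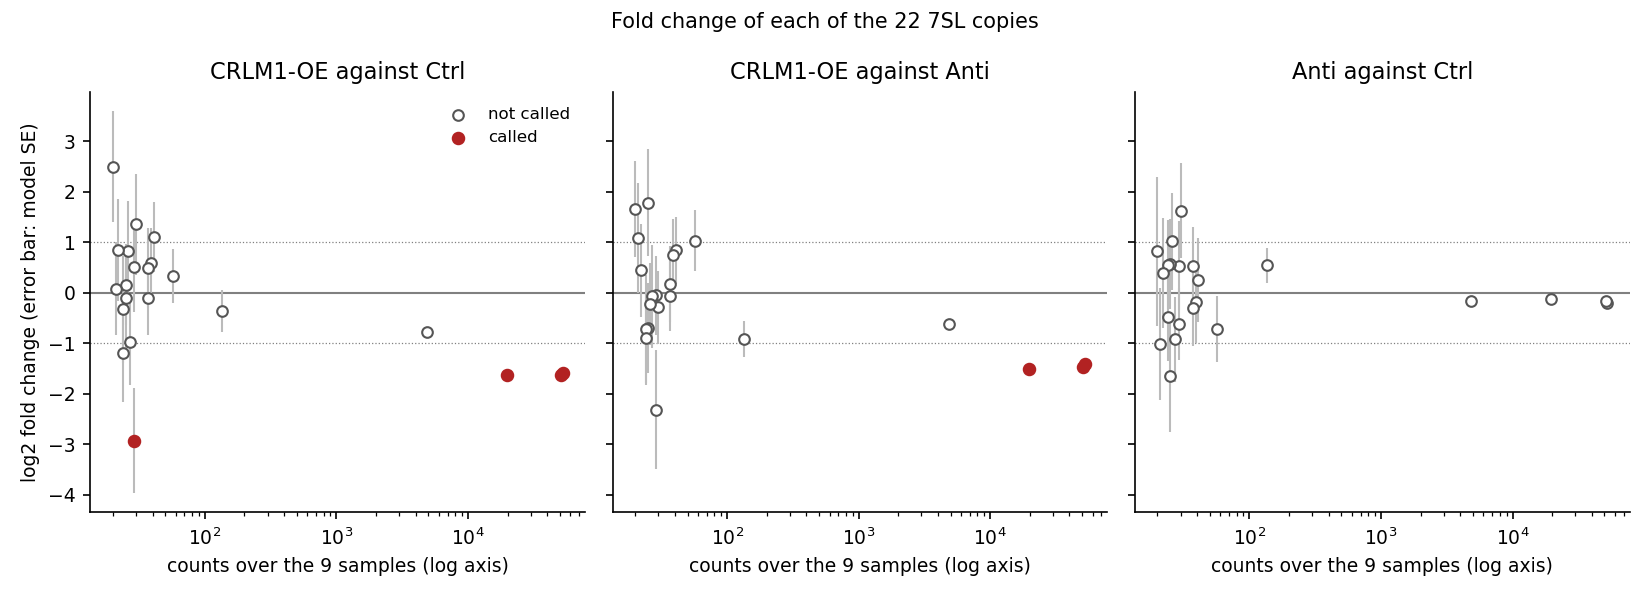
Log2 fold change of each of the 22 copies in the 3 comparisons against its counts over the 9 samples on a log axis, with the SE of edgeR's fit as error bar, dotted lines at 2-fold, and filled points for called copies. The 4 entries with most counts lie at -1.60, -1.62, -1.63 and -0.77 in CRLM1-OE against Ctrl and near 0 in Anti against Ctrl, while copies with few counts scatter on both sides of 0.

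RN7SL4P (ENSG00000263740, chr3:15738515-15738809, plus strand) lies in an intron of ANKRD28, which encodes an ankyrin repeat protein, on the opposite strand. It had 0, 0 and 2 counts in CRLM1-OE, 0, 11 and 5 in Ctrl, and 2, 7 and 2 in the Anti samples. Its call against Ctrl thus rests on 2 counts against 16, a ratio of 0.116 (exact 95% interval 0.0129 to 0.493, counting error only), and the groups overlapped at 0. The adjusted p by edgeR's quasi-likelihood test was 0.0172, and it was 0.451 without Ctrl replicate 2, 0.103 without CRLM1-OE replicate 1, 0.0789 without CRLM1-OE replicate 2 and 0.0523 without Ctrl replicate 3. ANKRD28 had a log2 fold change of -0.21 against Ctrl with an adjusted p of 0.0011 in edgeR's quasi-likelihood test.

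Of the other copies with few counts, named after their values were seen, RN7SL138P (chr17:30959564-30959850) had 18, 5 and 11 counts in CRLM1-OE, 15, 10 and 15 in Ctrl, and 19, 18 and 24 in the Anti samples. It had a log2 fold change of -0.92 against Anti with an adjusted p of 0.035 by edgeR's quasi-likelihood test, which went up to 0.22 without CRLM1-OE replicate 2. Metazoa_SRP ENSG00000281884 had 4, 2 and 8 counts in CRLM1-OE, 1, 1 and 0 in Ctrl, and 3, 0 and 1 in the Anti samples. Its adjusted p against Ctrl was 0.07 by edgeR's quasi-likelihood test. Of its 20 counts, 14 were in CRLM1-OE, so that it reached the limit only through that group. Its values are therefore no support for a difference. The 18 copies had a median log2 fold change of 0.24 against Ctrl, -0.05 against Anti and 0.32 for Anti against Ctrl, where all genes tested had medians of 0.02, -0.02 and 0.00. Of them, 7 had a 0 in at least 1 sample and no copy exceeded 24 counts in a sample.

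These copies also differed from the 3 chromosome 14 genes in sequence and place. Over the 15 that were aligned, the identity to RN7SL1 ranged from 55.1% to 87.0% with a median of 79%, and the copies below the limit had a median of 70.5%. RN7SL832P, listed as a lincRNA and 1756 bases long, spans more than a 7SL copy and was not aligned. In 14 of 16 with a position, every 151-base stretch was unique in the genome. The exceptions were RN7SL4P, which was called lower against Ctrl, with 71.0% of its stretches unique, and RN7SL602P with 84.5%. Of these 16, 11 lay in introns (9 with a host gene on the same strand and 2 with hosts on the opposite strand only), 1 in an exon, RN7SL608P in PAFAH1B1, and 4 between genes. RN7SL566P lay in an intron of SAMD4B, an RNA-binding protein gene, and RN7SL23P in introns of RP11-286N22.8 and of SDHAF2, which encodes an assembly factor of succinate dehydrogenase. Reads of unspliced host RNA would be counted in such a copy. The host SAMD4B had a log2 fold change of 0.03 in CRLM1-OE against Ctrl, and RP11-286N22.8 and SDHAF2 had -0.36 and -0.27, beside 0.85 for RN7SL566P (SE 1.00) and 0.08 for RN7SL23P (SE 0.92). These pairs were given because their copies lie at the limit of counts. Whether copies followed their hosts was not tested.

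None of the protein partners of 7SL RNA reached a fold change of 2 in CRLM1-OE against Ctrl. The shares over all genes, here and for the lists below, include genes with as little as 1 count, which rarely pass. No share was computed over genes with counts like those of the lists. Over 11702 genes with a mean of at least 100 counts, the median log2 fold change in CRLM1-OE against Ctrl was -0.05. Of the 6 proteins of the particle, 2 were lower in CRLM1-OE than in Ctrl (16.8% of all genes) and none was higher (15.0%), with a median log2 fold change of -0.10 (all genes 0.02), but on the FPKM scale, log2(FPKM + 0.1) with limma, 1 was lower and 1 higher and the median was 0.02. SRP72, a partner of SRP68 in the part of the particle that drives docking and release, fell by 0.32 on the log2 scale against Ctrl and by 0.33 against Anti, with 93.6 to 95.9 CPM in CRLM1-OE, 118 to 120 in Ctrl and 118 to 122 in Anti. SRP68 was at 230 to 236 CPM in CRLM1-OE, 256 to 258 in Ctrl and 211 to 219 in Anti, so that CRLM1-OE lay between the control groups. Its lower level against Ctrl (log2 fold change -0.14, adjusted p 1.86e-07 by edgeR's quasi-likelihood test) did not pass on the FPKM scale, where the groups had 67.2 ± 0.839 and 68.3 ± 0.63 FPKM and the adjusted p went up to 0.949.

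SRP54, the GTPase that binds the signal peptide, had a log2 fold change of -0.11 against Ctrl and 0.10 against Anti, and neither passed. SRP19, which lets SRP54 bind the RNA, was measured at 4.88, 5.13 and 5.59 CPM on average in CRLM1-OE, Ctrl and Anti and passed in no comparison. SRP9 and SRP14 bind the Alu domain of 7SL RNA as a pair and hold back translation. SRP9 was lower in CRLM1-OE than in Anti (-0.33) and higher in Anti than in Ctrl (0.22), with -0.09 against Ctrl, which did not pass. SRP14 had a log2 fold change of 0.00 against Ctrl and 0.06 against Anti, with an adjusted p of 0.0443 by edgeR's quasi-likelihood test. Against Anti, 2 of the 6 proteins were lower (18.5% of all genes) and 2 higher (17.1%), with a median of -0.06. In Anti against Ctrl 3 were lower (12.2%) and 1 higher (11.5%), with a median of -0.05.

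The receptor of the particle has a peripheral subunit, SRPR, and a subunit anchored in the membrane, SRPRB. SRPR was at 143, 148 and 150 CPM in CRLM1-OE, 150, 147 and 140 in Ctrl, and 122, 121 and 122 in the Anti samples, and it was thus higher in CRLM1-OE than in Anti (0.28) and lower in Anti than in Ctrl (-0.29). SRPRB was lower in CRLM1-OE than in Ctrl by 0.15 and than in Anti by 0.13 on the log2 scale in edgeR's fit, a change that did not pass on every alternative scale, where the adjusted p went up to 0.857 and 0.068.

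Genes of the translocon and of the signal peptidase act after the particle and its receptor. Of 17, 14 were lower in CRLM1-OE than in Ctrl (16.8% of all genes) and none was higher (15.0%), with a median log2 fold change of -0.33. The other 3 were SPCS1, SEC61G and SEC61A2, at -0.01, -0.06 and 0.15. Over the alternative analyses 11 to 14 were lower and up to 2 higher. Against Anti, 12 were lower (18.5% of all genes) and 3 higher (17.1%), with a median of -0.29. Between Anti and Ctrl 6 were lower (12.2%) and 5 higher (11.5%), with a median of -0.04. The only member that was called was SPCS3, a signal peptidase subunit, with 62.0, 61.2 and 63.9 CPM in CRLM1-OE, 92.4, 91.8 and 90.01 in Ctrl, and 124, 130 and 123 in the Anti samples. It was lower than in Anti by 1.01 on the log2 scale and lower than in Ctrl by 0.55.

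Other RNAs without a poly(A) tail were listed beside 7SL. Of 18 listed products of RNA polymerase III, 10 were in the table and 6 of these had fewer than 10 counts over the samples of CRLM1-OE and Ctrl. RN7SK, the RNA that holds the elongation factor P-TEFb inactive, had 1.89, 1.68 and 2.37 CPM in CRLM1-OE, 2.88, 2.45 and 3.60 in Ctrl, and 1.88, 2.42 and 2.90 in the Anti samples. It was lower than in Ctrl (-0.58, adjusted p 0.00098 by edgeR's quasi-likelihood test, 0.107 at the highest over the alternatives), and overlapped with Anti (-0.26, adjusted p 0.247 in the same edgeR test). RMRP, the RNA of RNase MRP, had -0.67 against Ctrl (adjusted p 0.0196, edgeR) and -0.18 against Anti (0.616). RPPH1, the RNA of RNase P, had -0.81 against Ctrl (adjusted p 0.0293, edgeR) and -0.71 against Anti (0.0618), from 13 to 34 counts a sample. Its counts and FPKM imply a gene model of 639 bases, and whether that model holds more than the RNA was not checked. RMRP and RPPH1 passed against Ctrl by the adjusted p alone, without reaching 2-fold. Neither passed in all alternatives, where the adjusted p went up to 0.285 and 0.142.

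BCYRN1 is a small primate RNA with an Alu-like part, but the counts and FPKM of the entry with its symbol imply a gene model of 13284 to 13699 bases. Its values therefore cannot be taken as those of the small RNA. The entry had 4.56, 5.45 and 9.61 CPM in CRLM1-OE, 3.50, 3.18 and 3.57 in Ctrl, and 4.49, 3.46 and 3.81 in the Anti samples, and its log2 fold change was 0.93 against Ctrl (adjusted p 9.61e-15 by edgeR's quasi-likelihood test, 0.0979 at the highest over the alternatives). CRLM1-OE replicate 3 was well above the other samples of its group. The other members were too low for a comparison. VTRNA1-1, VTRNA1-2 and VTRNA1-3, the vault RNAs, RNU6ATAC, and RNU6-2 and RNU6-8, the U6 RNAs, were at or below 0.0331 CPM on average in every group. Of the copy families, 8 of 32 7SK copies reached 20 counts, with 831 in RN7SK, and 1 of 113 U6 copies and 1 of 100 Y RNA copies did.

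Of 24 listed RNAs without a poly(A) tail that RNA polymerase II makes, 10 symbols were in the table. SCARNA2, a Cajal body RNA, had 1.21, 1.11 and 1.11 CPM in CRLM1-OE, 2.01, 2.07 and 2.61 in Ctrl, and 2.22, 2.13 and 2.16 in the Anti samples, and was lower in CRLM1-OE than in both (-0.95 and -0.92), named after its values were seen. The entry SNORD3A, named for the U3 RNA of ribosome assembly, had 19.7, 21.4 and 24.8 CPM in CRLM1-OE, 28.7, 28.4 and 35.3 in Ctrl, and 7.28, 7.06 and 7.45 in the Anti samples. Its counts and FPKM imply a gene model of 699 bases, and whether that model holds more than the U3 RNA was not checked. It was lower in CRLM1-OE than in Ctrl (-0.48, adjusted p 9.92e-19 by edgeR's quasi-likelihood test, 0.0566 at the highest over the alternatives) and was called lower in Anti than in both other groups. RNVU1-7, a U1 variant, was called higher in CRLM1-OE and in Anti than in Ctrl on 3, 1 and 5 counts, 8, 1 and 1 counts, and 0 counts in each Ctrl sample, and its adjusted p went up to 0.202 and 0.479 over the alternatives.

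Of 32 subunits and factors of RNA polymerase III, 15 were lower in CRLM1-OE than in Ctrl (16.8% of all genes) and 5 higher (15.0%), with a median of -0.10. These shares again include genes with few counts, and the median over genes with a mean of at least 100 counts was -0.05. Against Anti, 18 were lower (18.5%) and 8 higher (17.1%), with a median of -0.13. In Anti against Ctrl, 9 were lower (12.2%) and 10 higher (11.5%), with a median of 0.01. On the same FPKM scale the split against Ctrl was 9 lower and 8 higher (median 0.01). The 1 member called was POLR3C, a subunit of RNA polymerase III that takes part in initiation. It had 9.80, 10.6 and 9.41 CPM in CRLM1-OE, 25.5, 23.04 and 24.7 in Ctrl, and 29.4, 31.6 and 33.2 in the Anti samples. Its log2 fold change was -1.30 against Ctrl (SE 0.067) and -1.65 against Anti (SE 0.062), and the highest adjusted p over the alternatives was 7.41e-05 and 1.16e-05. Whether its level bears on that of 7SL RNA was not tested.

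**Figure D5:**
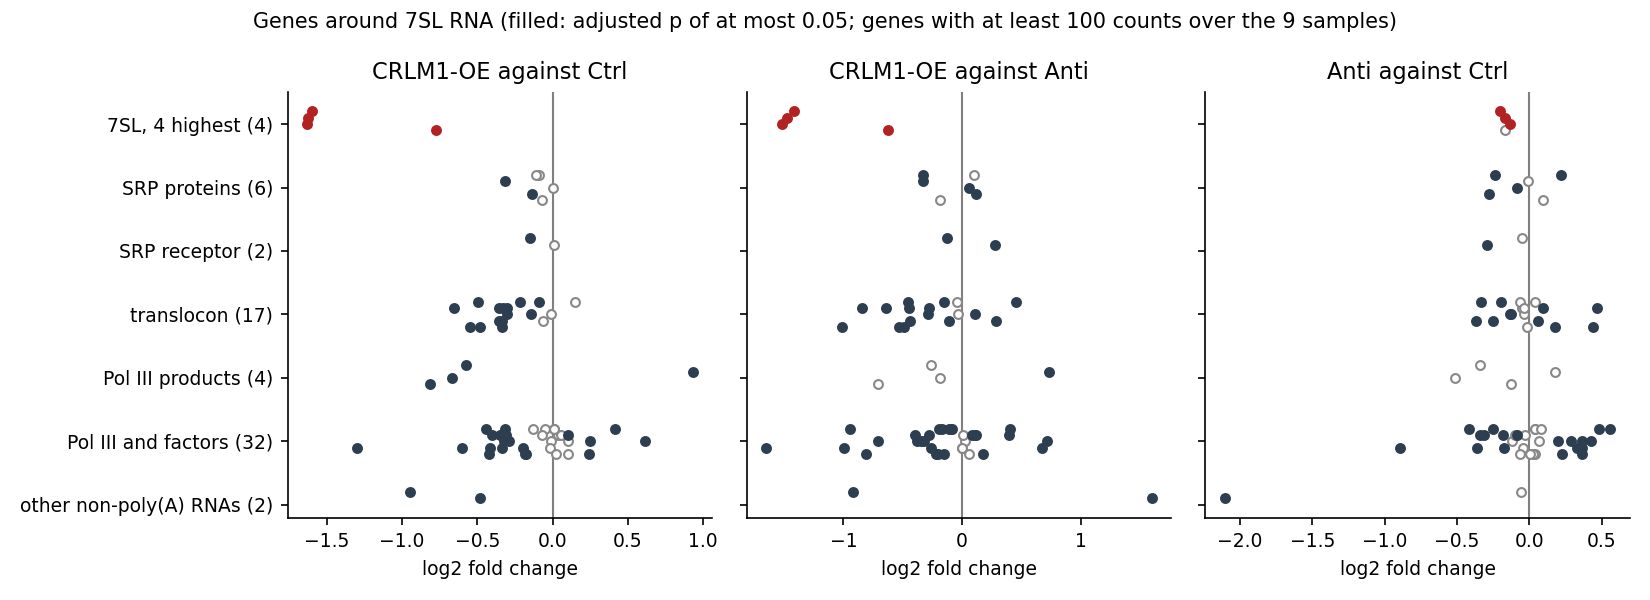
Log2 fold change of the 4 7SL entries with most counts and of the members of each gene list with at least 100 counts over the 9 samples, in the 3 comparisons, 1 point per gene and filled where the adjusted p was at most 0.05 in edgeR's quasi-likelihood test. The 7SL entries at -1.60 to -1.63 and POLR3C at -1.30 lie farthest to the left in CRLM1-OE against Ctrl, and the translocon genes sit around a median of -0.33.

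The genes whose log2 CPM over the 9 samples was most like that of the summed copies were NHP2 (Pearson r 0.985), S100A16 (0.984), NME4 (0.982), JADE3 (0.978), C11orf31 (0.978), CBLL1 (0.978), GAR1 (0.977), DBNDD2 (0.977), EXOSC4 (0.973) and ZC3H7A (0.972), of 11698 genes compared. These are descriptions over 9 samples in 3 groups, in which the groups set most of the likeness. Their size of change was small beside that of 7SL, with log2 fold changes of -0.22 for NHP2 and -0.50 for NME4 in CRLM1-OE against Ctrl. NHP2 and GAR1 are both proteins of the box H/ACA ribonucleoproteins, and EXOSC4 is a subunit of the RNA exosome. GAR1 had 39.7, 37.5 and 39.0 CPM in CRLM1-OE, 51.7, 52.3 and 54.0 in Ctrl, and 52.5, 51.3 and 50.8 in the Anti samples, so that its groups Ctrl and Anti overlapped and CRLM1-OE did not.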

How the data were processed

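RNA of 9 HCT116 samples was sequenced by the authors as 151-base paired reads. They trimmed the reads with FASTX-Toolkit, dropped reads under 16 bases, and aligned them to GRCh38 with TopHat2 and GENCODE version 23, with up to 4 mismatches. The deposited counts are uniquely mapped reads per gene, and the deposited FPKM values were computed by the authors from them. The submitters' processing notes also name bcl2fastq and edgeR. Strand use in counting was not given in the sources used here.

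Counts were tested with edgeR 4.0.16 (R 4.3.3), TMM factors and the quasi-likelihood test, on every gene with at least 1 count over the 6 samples of a comparison, with Benjamini-Hochberg adjustment over all of them. Calls used the limits of the study, 2-fold or more in either direction with an adjusted p no higher than 0.05. The SE of the fit is the absolute log2 fold change divided by the square root of F. The script was tested on simulated data with the same low spread for every gene, below that of the 7SL entries in CRLM1-OE and Ctrl. That test therefore does not bear on the p-values of these entries. Alternatives were DESeq2 1.42.0, limma 3.58.1 on log2(FPKM + 0.1) and log2(FPKM + 1), other factors and filters, all 9 samples in one fit, a replicate block, and each sample left out. Ratios between copies were compared with exact permutation tests (scipy 1.17.1).

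Positions came from GENCODE version 44 by Ensembl identifier, on the build that the authors used. Promoter windows came from the RefSeq table (GRCh38). Alignments were made with Biopython 1.88. The copies and gene lists were chosen with earlier results of these data known. Named genes were copies with at least 1000 counts, called copies, copies at the limit, hosts, particle and receptor proteins, polymerase III products, other list members where called, and the 10 genes most alike among those with a mean of at least 100 counts. The CD3E marker was not used here, and the transcribed sequences and 1 other marker are not reported here.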

Additional observations from a re-analysis of the deposited data

How the results depend on the processing

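The 4 copies called lower in CRLM1-OE than in Ctrl were 3 to 5 and the 3 copies against Anti were 3 to 5 over 10 other settings, and with 1 sample left out 3 to 4 in both. With the adjusted p alone, 5 copies passed against Anti and 3 in Anti against Ctrl, where 0 were called at 2-fold. No paired analysis was used in the report, since samples with the same number did not deviate together (mean correlation 0.00219, range -0.0749 to 0.0782, over 12941 genes), and with the replicate block 3, 3 and 0 copies were called in the 3 comparisons. Without the 3 copies with most counts, the log2 ratio of the summed copies was -0.68 against Ctrl and -0.55 against Anti, by construction nearer to that of the RN7SL3 locus. Without the miRNA-type entry, an alternative chosen after seeing the data, it was -1.57, -1.40 and, for Anti against Ctrl, -0.16. Without 1 sample the ratio was -1.74 to -1.41, -1.54 to -1.25 and, for Anti against Ctrl, -0.32 to 0.00.

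With 1 sample left out, the log2 fold change of Anti against Ctrl was -0.33 to 0.0069 for the RN7SL2 locus, -0.32 to 0.047 for the miRNA-type entry (both above 0 without Ctrl replicate 3) and -1.47 to 0.47 for RN7SL4P (above 0 without Ctrl replicate 2), and the cause was not tested. Of the gene lists, 2, 3 and 2 members were called in CRLM1-OE against Ctrl, CRLM1-OE against Anti, and Anti against Ctrl. For CRLM1-OE against Ctrl and for Anti against Ctrl this was 1 with edgeR's own filter, with at least 10 counts in every sample, with DESeq2, with limma on log2(FPKM + 1) and with the replicate block, and for Anti against Ctrl also with limma on log2(FPKM + 0.1). With 1 sample left out the counts were 1 to 3, 2 to 5 and 1 to 2, and with the adjusted p alone 44, 50 and 37. Over 11702 genes with a mean of at least 100 counts, total counts without factors moved the median log2 fold change by 0.14 in CRLM1-OE against Ctrl and 0.10 in Anti against Ctrl. Uniqueness of reads limits the chromosome 14 genes, RN7SL3 least, and also RN7SL4P. Depth limits all copies outside chromosome 14.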
